A study of Mus musculus with 21 samples.

Results

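The core genes of the circadian clock were followed in Nes low mesenchymal cells of mouse bone marrow before and during the growth of human acute myeloid leukemia (AML). The 10 members (Arntl, also called Bmal1, Clock, Npas2, Per1, Per2, Per3, Cry1, Nr1d1, Nr1d2 and Dbp) were taken by symbol and matched to Ensembl identifiers, out of 26852 genes in the table. All 10 were present, and all 10 passed the filter on low values.

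RNA-seq had been performed on Nes low cells sorted from NSG mice, an immunodeficient strain, that carried green fluorescent protein under control of Nestin. Of 21 libraries, 3 came from mice that received no leukemia (ctrl). The others came from mice injected, without conditioning and at 8 to 12 weeks of age, with HL60 or ML1 cells, both human AML cell lines made to release sLP-mCherry, a red protein taken up by cells nearby. At the early stage, labeled cells (early ch+, 6 libraries) and unlabeled cells of the leukemic marrow (early ch-, 6 libraries) were sorted apart, and at the late stage Nes low cells were taken without regard to the label (late, 6 libraries). Each leukemic group held 3 HL60 and 3 ML1 libraries. The treatment field of the ML1 late libraries reads unengrafted, whereas their titles and time point field say ML1 and late, and they were kept as ML1 late. A transgene driven by Nestin and the dim gate limit these cells to part of the marrow stroma, the host lacks lymphocytes, and uptake of mCherry reports contact with the released protein.

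The mammalian clock is a loop of transcription and translation that runs in most cells. ARNTL pairs with CLOCK or its relative NPAS2 and activates genes through E-boxes, among them the Per, Cry, Nr1d and Dbp genes. PER and CRY proteins enter the nucleus and repress that pair, while NR1D1 and NR1D2 (REV-ERB alpha and beta) repress Arntl through ROR elements, and DBP activates genes through D-boxes. In bone marrow, stromal Cxcl12 and the release of blood stem cells are known to vary over the day. Because transcripts of these genes swing with the hour, the hour of sampling bears on every value given here. Neither the labels nor the study's methods used here give that hour for any library. In comparisons with ctrl or late, hour and group therefore cannot be told apart, and the part of the hour in the results was not tested. Unlabeled and labeled cells are described as coming from the same marrow, and so from a shared hour of sampling, but the labels do not pair the libraries.

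Values are the authors' regularized log2 values, so a difference of 1 stands for a factor close to 2 only where the level is high. Regularization draws the values of low genes toward their mean, so differences of low members can be understated. The depth of each library is unknown since the values hold no read counts. A gene is called deregulated at a limma adjusted p under 0.1 over the 12976 genes tested. Where groups are said not to overlap for a gene, the share of all tested genes that part in the same way was not counted. Such a separation is thus a description of the libraries. Nothing says that libraries of a group came from separate mice, so these p-values measure the spread between libraries. Converted from log2 and summed, the values came, in units of 1000000, to 11.9 to 14.2 for ctrl libraries, 12.3 to 14.7 for ch-, 11.2 to 12.6 for ch+ and 7.27 to 9.02 for late. Late totals were 8.41 to 9.02 with HL60 and 7.27 to 7.46 with ML1. The same gene held the largest share of each total, 29.7 to 34.2% in ctrl and 16.8 to 26.2% in late libraries. Its share was 30.76 to 38.65% in ch- and 26.5 to 31.7% in ch+ libraries. That gene so weighs on the rescaling to equal totals used below.

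Markers of mesenchymal cells were abundant in every group, but osteoblast markers, given below, had a higher mean sum in each, and chondrocyte markers in ctrl and ch-. In ML1 late replicates 582 and 583 the osteoblast sums, 16.34 and 16.49, lay below the mesenchymal ones, 16.99 and 17.09. Cxcl12, the chemokine made by these stromal cells and the most abundant of 10 mesenchymal markers, stood at 15.19 ± 0.35 (SD, n = 3) in ctrl, and the 10 summed to log2 levels of 15.84 (ctrl), 16.23 (ch-), 16.63 (ch+) and 16.98 (late) on average. Against ctrl, limma called none of the 10 in ch- (6 had an unadjusted p under 0.05), beside 1.92% of all tested genes. In ch+ 6 were higher, beside 6.17%, and in late 7 were higher and 1 lower, beside 21.5%. Endothelial markers (7 genes, most often led by Cdh5) summed to 8.21 (ctrl), 8.17 (ch-), 8.42 (ch+) and 7.82 (late), with 3 of the 6 tested lower in late than in ch+ and 1 lower than in ch-, although the extraction text of the labels speaks of CD31+ endothelial cells. None of the defining markers can be read as 0 in regularized values; Ptprc, the pan-leukocyte marker, averaged 2.56 (ctrl), 4.21 (ch-), 4.79 (ch+) and 2.43 (late).

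Markers of other cells differed between the groups, given next as mean log2 sums in the order ctrl, ch-, ch+, late. Red cell markers (7 genes, led by Hbb-bs in most libraries) summed to 8.86, 12.87, 12.98 and 6.62, and all 7 were higher in each early group than in ctrl and lower in late than in each early group. Blood cell markers (9 genes, led by Lyz2 in most libraries) summed to 8.52, 10.79, 10.68 and 7.44. Chondrocyte markers (12 genes, led by Col2a1 or Col11a1) summed to 17.35, 16.79, 15.81 and 13.70, and 10 of 12 were lower in ch+ than in ctrl and than in ch-, and all 12 lower in late than in ctrl. Osteoblast markers (9 genes, led by Col1a1) summed to 20.45, 20.26, 19.93 and 17.74. Smooth muscle markers (8 genes, led by Myh11 or Mylk) summed to 14.15, 13.52, 12.22 and 12.92, and skeletal muscle markers (8 genes, most often led by Acta1) to 6.16, 7.60, 8.37 and 5.36. The part of these shifts in the values of the clock genes was not tested, and fewer cells of a type cannot be told apart from less RNA per cell. The study describes removal of human and mouse CD45+ cells before sorting, and staining of what remained for CD45, CD31 and the red cell marker Ter119.

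Within ctrl cells the clock genes spanned a wide range of levels. Per kilobase of exon, the log2 level was highest for Nr1d1 at 8.02 ± 0.27 (SD, n = 3), followed by Npas2 at 6.37, Clock at 5.97 and Per1 at 5.92. Cry1 (5.16), Nr1d2 (4.96) and Arntl (4.10) lay in the middle, and Per2 (3.27), Dbp (3.04) and Per3 (1.91 ± 0.82) were lowest. Neighbors in this order overlapped between libraries, except that every Nr1d1 value lay above every Npas2 value, every Per1 value above every Cry1 value, every Nr1d2 value above every Arntl value, every Arntl value above every Per2 value, and every Dbp value above every Per3 value. Nr1d1 remained first per kilobase in all 4 groups, and Per3 and Dbp were the lowest pair.

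In the pooled comparisons 4 members were deregulated at least once: Nr1d1, Nr1d2, Per1 and Per2. Against ctrl, 1 of 10 was deregulated in late (Per2, higher), where 21.5% of all tested genes were. In ch-, 1 of 10 was deregulated (Nr1d1, lower) against 1.92% of all genes, and in ch+ limma gave 0 of 10 against 6.17%, with 2 members at an unadjusted p under 0.05. Between the early fractions, 1 of 10 differed (Nr1d1, higher in ch+) against 6.26% of all genes. Late cells differed from ch+ in 3 members, all higher (Per1, Per2 and Nr1d2), against 19.7%, and from ch- in 1 (Nr1d1, higher), against 22.5%. The median log2 difference of the 10 members was 0.08 in late and 0.04 in ch- against ctrl, beside 0.02 and 0.01 over all tested genes, and −0.07 in ch+, beside 0.01. It was −0.17 between ch+ and ch-, beside −0.02, and 0.21 and 0.26 in late against ch+ and ch-, beside 0.02 and 0.00. These comparisons share libraries and are not independent of each other, and whether the member counts depart from the shares of all genes was not tested.

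The scale chosen matters for the late libraries. With every library rescaled to the same total, the median difference of all tested genes in late became 0.71 against ctrl, 0.63 against ch+ and 0.77 against ch-, and the deregulated members became 6, 7 and 8, all higher. On that scale 8323, 9055 and 10185 of the 12976 tested genes were deregulated, of which 93.8%, 93.5% and 95.3% were higher. Values below are on the deposited scale.

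**Figure D1:**
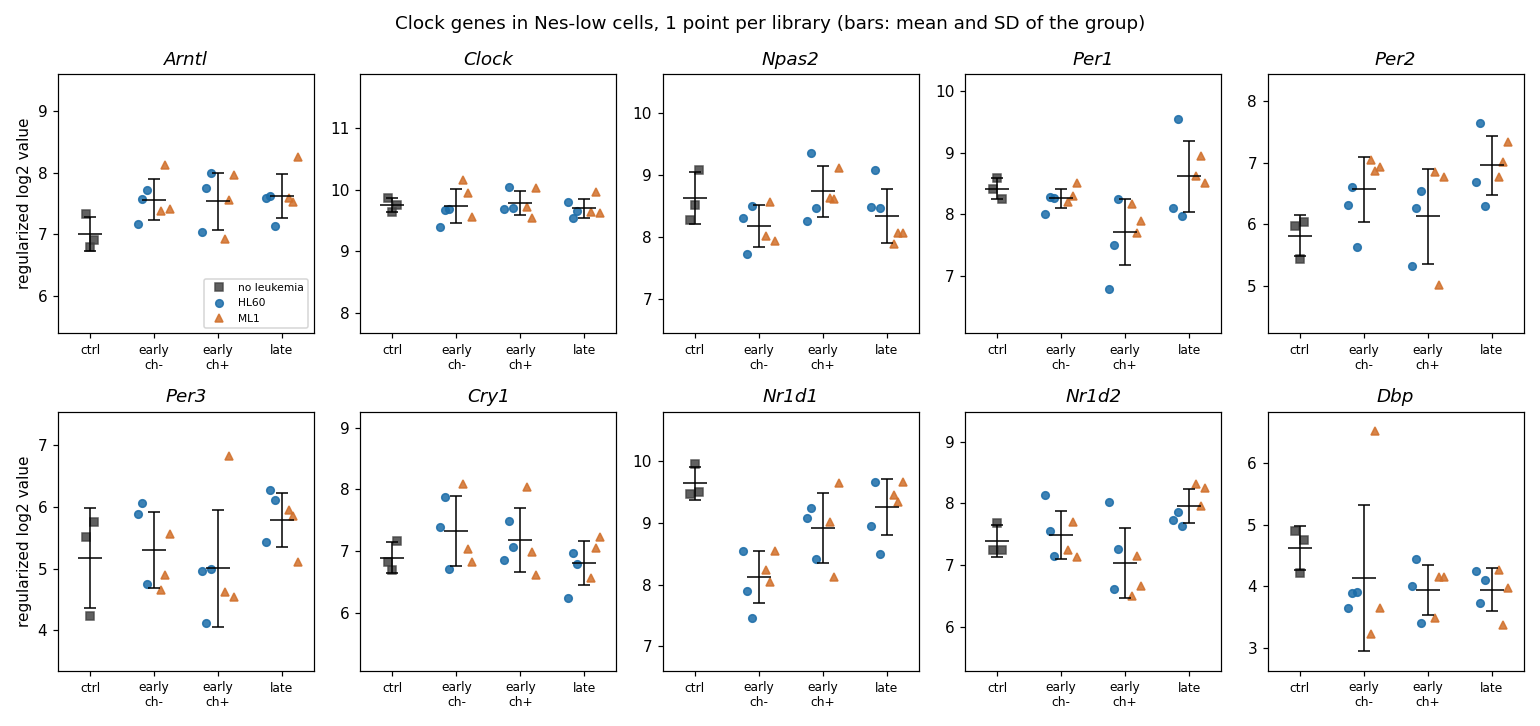
Regularized log2 values of the 10 clock genes (vertical axes, each spanning the same number of log2 units) in every Nes low library, by group (horizontal axes), with HL60 as circles, ML1 as triangles and ctrl as squares; horizontal marks and bars give the mean and SD of the group. All 6 early ch- libraries lie below the 3 ctrl libraries for Nr1d1, and all 6 late libraries above them for Per2. The share of all tested genes that separate in this way was not counted.

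Nr1d1, which encodes the nuclear receptor REV-ERB alpha, showed the clearest change. In ctrl the libraries stood at 9.47, 9.95 and 9.50 log2. In early ch- cells they ranged from 7.45 to 8.55 with a median of 8.14, in ch+ from 8.12 to 9.65 with a median of 9.05, and in late from 8.49 to 9.66 with a median of 9.39. All ch- libraries were thus below all ctrl libraries, whereas ch+ and late overlapped with ctrl, and ch- overlapped with ch+ and, through 1 late library, with late.

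Nr1d1 fell by 1.52 in ch- against ctrl (SE 0.28, limma adjusted p = 0.00257), with 6 of 6 libraries lower. It was higher in ch+ than in ch- by 0.80 (SE 0.23, limma adjusted p = 0.0392), with 6 of 6 ch+ libraries above the ch- mean, and higher in late than in ch- by 1.14 (SE 0.23, limma adjusted p = 0.000496), with 6 of 6 late libraries above that mean. The lowest ch+ library, ML1 replicate 539, lay above the ch- mean by less than the rounding of these values. The ch+ difference from ctrl, −0.72 (SE 0.28, limma adjusted p = 0.173), did not pass the test, except without ML1 ch+ replicate 541 (−0.87, limma adjusted p = 0.0760). That of late, −0.39 (95% interval −0.96 to 0.19), did not pass either. The call between the early fractions was lost without HL60 ch- replicate 529 (0.67, limma adjusted p = 0.117) or ML1 ch+ replicate 541 (0.65, limma adjusted p = 0.125). It was also lost with no filter on low values (limma adjusted p = 0.160), with array weights (0.74, limma adjusted p = 0.102) and within each line.

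Other markers differed as well. From ctrl to ch-, where Nr1d1 was lowest, red cell markers went from 8.86 to 12.87 (7 of 7 higher) and blood cell markers from 8.52 to 10.79 (6 of the 7 tested higher). Between ch- and ch+, red cell markers stood at 12.87 and 12.98, chondrocyte markers at 16.79 and 15.81 (10 of 12 lower in ch+) and smooth muscle markers at 13.52 and 12.22 (6 of 8 lower). In late, against ch-, all 7 red cell, all 7 tested blood cell, all 12 chondrocyte and 8 of 9 osteoblast markers were lower, and of 10 mesenchymal markers 7 were higher and 2 lower. All 5 tested skeletal muscle, 3 of 8 smooth muscle and 1 of the 6 tested endothelial markers were lower there too. Their part in the Nr1d1 differences was not tested.

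Nr1d1 lies on chromosome 11 of GRCm38 (98767932 to 98775333, minus strand) and shares 263 bases of exon, 8.55% of its exonic length, with Thra on the opposite strand, which encodes thyroid hormone receptor alpha. The study describes strand-specific reads counted by strand, while the labels name a cDNA kit for which no strand is stated, and whether reads in the overlap were told apart was not tested. Thra itself averaged 8.75 ± 0.31 (SD) for the 3 ctrl libraries, 8.42 ± 0.23 for ch-, 8.81 ± 0.15 for ch+ and 8.72 ± 0.20 for late (n = 6 each). It was not deregulated in any of the 6 comparisons. Its difference between ch- and ctrl was −0.32 (SE 0.17, limma adjusted p = 0.484). It was 0.39 between ch+ and ch- (limma adjusted p = 0.143) and 0.30 between late and ch- (limma adjusted p = 0.163), of the same sign as Nr1d1 and smaller in all 3.

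Nr1d2 is the gene of REV-ERB beta, the paralog. The ctrl libraries stood at 7.24, 7.69 and 7.24 log2. Early ch- libraries ranged from 7.13 to 8.13 (median 7.39), ch+ from 6.51 to 8.03 (median 6.90) and late from 7.64 to 8.31 (median 7.91). All groups overlapped, and the highest ch+ library was HL60 replicate 523.

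Nr1d2 was higher in late than in ch+ by 0.92 (SE 0.23, limma adjusted p = 0.00457), with 6 of 6 late libraries above the ch+ mean. With HL60 alone the difference was 0.44 (limma adjusted p = 0.512) and the call was lost. Late exceeded the ch- mean by 0.48 (limma adjusted p = 0.171), with 6 of 6 libraries above it, which did not pass the test. It passed in a fit of the compared groups alone (limma adjusted p = 0.0961), with ML1 alone (0.82, limma adjusted p = 0.0788), without HL60 ch- replicate 527 (0.61, limma adjusted p = 0.0782) and when rescaled to equal totals (1.24). Against ctrl its difference was 0.57 in late (95% interval −0.01 to 1.14, limma adjusted p = 0.193), −0.36 in ch+ and 0.09 in ch-, none of them past the threshold. That of late passed with the compared groups alone (limma adjusted p = 0.0772), with ML1 alone (0.78, limma adjusted p = 0.0849) and when rescaled to equal totals (1.26). Between ch+ and ch- the Nr1d2 difference was −0.45 (SE 0.23, limma adjusted p = 0.360), which did not pass. Without HL60 ch+ replicate 523 it did (−0.64, limma adjusted p = 0.0908).

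Per1 and Per2, repressors of the ARNTL pair, were both higher in late than in ch+ cells. Per1 stood at 8.41, 8.59 and 8.25 log2 in ctrl. It ranged from 8.01 to 8.51 in ch- (median 8.28), from 6.80 to 8.25 in ch+ (median 7.80) and from 7.98 to 9.55 in late (median 8.57). The ch- libraries lay within a narrow band near ctrl, and all ch+ libraries lay below the lowest ctrl library, the nearest of them by less than the rounding of these values.

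Per1 was higher in late than in ch+ by 0.90 (SE 0.23, limma adjusted p = 0.00483), with 6 of 6 late libraries above the ch+ mean, a call lost with ML1 alone (0.77, limma adjusted p = 0.117). Although the ch+ libraries did not overlap with ctrl, their difference of −0.70 (SE 0.28, limma adjusted p = 0.186) did not pass the test. From ch-, the ch+ cells differed by −0.54 (limma adjusted p = 0.220). In late, HL60 replicate 398 at 9.55 stood above the other HL60 late libraries, at 8.11 and 7.98.

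Per2 stood at 5.98, 5.43 and 6.05 log2 in ctrl. It ranged from 5.64 to 7.05 in ch- (median 6.74), from 5.03 to 6.85 in ch+ (median 6.41) and from 6.29 to 7.65 in late (median 6.89). All late libraries lay above all ctrl libraries, and both early groups overlapped with ctrl and with late.

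Per2 rose by 1.14 in late against ctrl (SE 0.39, limma adjusted p = 0.0413), with 6 of 6 libraries higher. It was higher in late than in ch+ by 0.82 (SE 0.31, limma adjusted p = 0.0779), with 6 of 6 late libraries above the ch+ mean. Its differences from ctrl in ch- (0.75, limma adjusted p = 0.449) and ch+ (0.31, limma adjusted p = 0.741) did not pass the test. The late call against ctrl was lost without ctrl replicate 374, the lowest of the 3 (0.94, limma adjusted p = 0.184), and narrowly with no filter on low values (limma adjusted p = 0.101). The call against ch+ was lost without any 1 of 5 libraries: ML1 late replicates 582 (0.81) and 583 (0.75), HL60 late replicate 398 (0.69), HL60 ch+ replicate 523 (0.66) and ML1 ch+ replicate 539 (0.60). It was also lost with no filter on low values (limma adjusted p = 0.162) and within each line.

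The markers that set late apart stood as follows beside Per1, Per2 and Nr1d2. Levels are sums in late, against ch+ and then ctrl, and counts are of genes called in late against each. Red cell markers summed to 6.62 against 12.98 (7 of 7 lower) and 8.86 (4 of 7 lower). Osteoblast markers summed to 17.74 against 19.93 and 20.45 (7 of 9 lower and 1 higher in both). Mesenchymal markers summed to 16.98 against 16.63 (4 of 10 higher and 2 lower, Cxcl12 not called) and 15.84 (7 higher and 1 lower). Chondrocyte markers summed to 13.70 against 15.81 (3 of 12 lower, with a list median of 0.10) and 17.35 (12 of 12 lower). Blood cell markers summed to 7.44 against 10.68 (7 of the 7 tested lower) and 8.52 (2 of 7 lower). Smooth muscle markers summed to 12.92 against 12.22 (5 of 8 higher) and 14.15 (5 of 8 lower). Skeletal muscle markers summed to 5.36 against 8.37 (5 of the 5 tested lower) and 6.16 (1 of 5 lower). Endothelial markers summed to 7.82 against 8.42 (3 of the 6 tested lower) and 8.21 (0 of 6 called). Of all tested genes, 19.7% differed from ch+ and 21.5% from ctrl. Their part in the late differences was not tested.

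Per3, the third Per gene, was expressed at a low level and varied widely. The ctrl libraries spanned 4.24 to 5.76 log2, those of ch- 4.65 to 6.07, those of ch+ 4.11 to 6.83 and those of late 5.11 to 6.28, all overlapping. It was not deregulated in any pooled comparison, and the difference nearest to the threshold was 0.78 between late and ch+ (SE 0.38, limma adjusted p = 0.187). The ch+ value of 6.83 came from ML1 replicate 539, while the other 5 ranged from 4.11 to 4.99. Without that library the difference was 1.15 (SE 0.33, limma adjusted p = 0.0166), and Per3 would count as higher in late.

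Cry1, the partner of the PER proteins, was not deregulated either. The ctrl libraries averaged 6.90 ± 0.25 (SD, n = 3), those of ch- 7.32 ± 0.57 (n = 6), those of ch+ 7.18 ± 0.51 and those of late 6.81 ± 0.36, and all groups overlapped. The difference nearest to the threshold was −0.51 between late and ch- (95% interval −1.04 to 0.01, limma adjusted p = 0.192).

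The activators Clock, Arntl and Npas2 were not deregulated in any pooled comparison. Clock had means of 9.75 ± 0.12 log2 (SD, ctrl, n = 3), 9.73 ± 0.27 (ch-, n = 6), 9.78 ± 0.20 (ch+) and 9.70 ± 0.15 (late). Its 95% interval against ctrl ran from −0.37 to 0.27 in late, from −0.29 to 0.36 in ch+ and from −0.34 to 0.31 in ch-. Rescaled to equal totals, Clock in late was higher than ctrl by 0.64 (limma adjusted p = 0.00291), below the median of all tested genes on that scale.

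Arntl, the obligate partner of both, stood at 7.32, 6.80 and 6.91 log2 in ctrl. It ranged from 7.16 to 8.12 in ch- (median 7.49), from 6.92 to 7.99 in ch+ (median 7.65) and from 7.14 to 8.26 in late (median 7.59). Each leukemic group had a higher mean than ctrl, by 0.55 in ch- (limma adjusted p = 0.417), 0.53 in ch+ (limma adjusted p = 0.324) and 0.61 in late (limma adjusted p = 0.127), but the 3 differences rest on the same ctrl libraries, every group overlapped with ctrl, and none passed the test. The difference of late passed without HL60 late replicate 399 (0.71, limma adjusted p = 0.0798), with the compared groups alone (limma adjusted p = 0.0999), with ML1 alone (0.78, limma adjusted p = 0.0898) and when rescaled to equal totals (1.30). The 3 leukemic groups lay within 0.08 of each other, although rescaled late stood above ch+ (0.70) and ch- (0.83) and both differences passed.

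Npas2, which can replace Clock, averaged 8.63 ± 0.42 (SD, ctrl), 8.17 ± 0.34 (ch-), 8.74 ± 0.42 (ch+) and 8.34 ± 0.44 (late). The ch+ mean lay above that of ch- by 0.57 (SE 0.21, limma adjusted p = 0.149), which did not pass the test, and the groups overlapped. It passed without HL60 ch+ replicate 523 (0.66, limma adjusted p = 0.0883), with the lines averaged (0.57, limma adjusted p = 0.0979) and when rescaled to equal totals (0.72, limma adjusted p = 0.0224). The lower mean of late against ch+ (−0.40, limma adjusted p = 0.242) passed without HL60 late replicate 398 (−0.55, limma adjusted p = 0.0751) and with ML1 alone (−0.78, limma adjusted p = 0.0610), and late stood above ch- when rescaled (0.94, limma adjusted p = 0.000205).

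Dbp, the activator at D-boxes and a direct target of the ARNTL pair, had the lowest mean of the members in each group before division by exon length. In ctrl it stood at 4.89, 4.22 and 4.76 log2, in ch+ at 3.40 to 4.44 (median 4.08) and in late at 3.37 to 4.26 (median 4.04). In ch- it ranged from 3.23 to 6.51 (median 3.77), where 6.51 came from ML1 replicate 544 alone. Its differences from ctrl, −0.48 (ch-), −0.68 (ch+) and −0.68 (late), each with an SE of 0.46, did not pass the test, and every group overlapped with ctrl. For ch- the ranges overlapped only through replicate 544, above all ctrl libraries, while the other 5 (3.23 to 3.90) lay below them. Without replicate 544 the ch- mean was 3.66 ± 0.27 (SD, n = 5) and the difference from ctrl −0.96 (SE 0.32, limma adjusted p = 0.187).

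Dbp shares 539 bases of exon, 18% of its exonic length, with Sphk2, a sphingosine kinase gene on the opposite strand. Sphk2 was not deregulated in any of the 6 comparisons and averaged 6.14 ± 0.09 (SD, ctrl), 6.81 ± 0.62 (ch-), 6.46 ± 0.40 (ch+) and 6.40 ± 0.44 (late). In replicate 544 it stood at 6.99, within the range of the other ch- libraries (5.99 to 7.57). Here too the assignment of reads in the overlap was not tested.

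**Figure D2:**
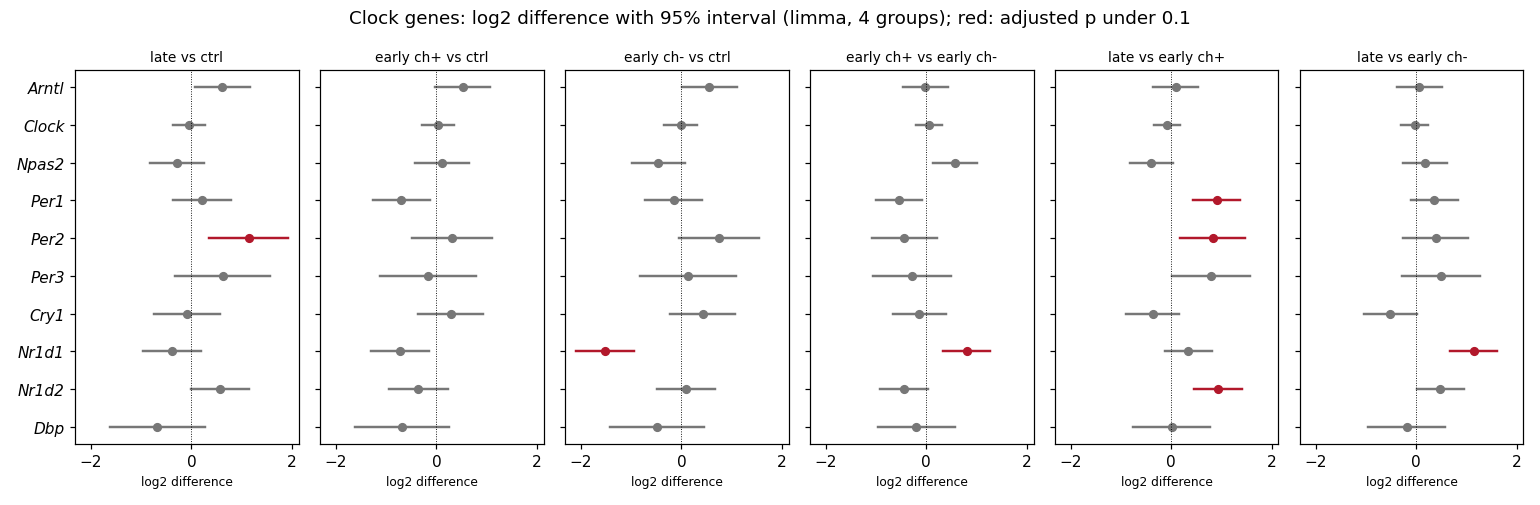
Log2 difference of each clock gene (horizontal axes) with its 95% interval in the 6 pooled comparisons, red where the limma adjusted p is under 0.1 and gray otherwise. Nr1d1 in ch- against ctrl (−1.52) and in late against ch- (1.14) and Per2 in late against ctrl (1.14) lie farthest from 0 on the deposited scale; with libraries rescaled to equal totals, the late signs of Clock, Npas2, Cry1, Nr1d1 and Dbp against ctrl turn positive.

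The cell lines were next considered apart, in a fit with 7 groups. The fall of Nr1d1 in ch- was present with both. HL60 ch- libraries stood at 8.54, 7.89 and 7.45 and ML1 ch- libraries at 8.24, 8.04 and 8.55, all below ctrl. The difference from ctrl was −1.68 with HL60 (SE 0.31, limma adjusted p = 0.00282) and −1.36 with ML1 (SE 0.31, limma adjusted p = 0.0193), and Nr1d1 was the only member deregulated there, against 1.57% and 2.34% of all tested genes. Both differences rest on the same ctrl libraries and are not independent.

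In late cells, Nr1d1 exceeded ch- by 1.07 with HL60 (limma adjusted p = 0.0272) and by 1.20 with ML1 (limma adjusted p = 0.00727). With HL60 this was 1 of 10 members against 12.1% of all genes, and with ML1 it was joined by Nr1d2 (0.82, limma adjusted p = 0.0788), giving 2 of 10 against 18.3%. Late Nr1d1 values were 8.94, 9.66 and 8.49 with HL60 and 9.45, 9.33 and 9.66 with ML1. The ML1 libraries were the tighter set, and HL60 late overlapped with HL60 ch-.

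Against ctrl, no member was deregulated in HL60 late cells by limma (13.7% of all genes were), with 1 member at an unadjusted p under 0.05, Per2 at 1.06 (SE 0.44, limma adjusted p = 0.139). In ML1 late cells 3 of 10 were, against 22.0%: Per2 by 1.22 (SE 0.44, limma adjusted p = 0.0527), Nr1d2 by 0.78 (SE 0.31, limma adjusted p = 0.0849) and Arntl by 0.78 (SE 0.31, limma adjusted p = 0.0898). Late Per2 values were 6.69, 7.65 and 6.29 with HL60 and 6.76, 7.01 and 7.34 with ML1, so both lines lay above ctrl and overlapped with each other. Late Nr1d2 values were 7.72, 7.86 and 7.64 with HL60 and 8.31, 7.96 and 8.26 with ML1, which did not overlap. Compared directly in late, as given below, the lines differed in no member by limma.

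Between late and ch+, HL60 gave 1 of 10 (Per1, 1.03, SE 0.32, limma adjusted p = 0.0419) against 10.2% of all genes. ML1 gave 2 of 10 against 16.9%, Nr1d2 higher by 1.40 (SE 0.31, limma adjusted p = 0.00154) and Npas2 lower by a log2 difference of −0.78 (SE 0.28, limma adjusted p = 0.0610). Npas2 in ML1 stood at 7.89, 8.07 and 8.05 in late and at 8.63, 8.61 and 9.12 in ch+. The ML1 groups did not overlap, whereas HL60 late (8.49, 9.08 and 8.46) and HL60 ch+ (8.25, 9.35 and 8.46) did.

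For early ch+ cells, limma called 0 of 10 members against ctrl with HL60 (5.33% of all genes were, and 2 members had an unadjusted p under 0.05) or with ML1 (6.69%, and 1 member). Between ch+ and ch- it called 0 of 10 with HL60 (3.92%, and 2 members at an unadjusted p under 0.05) or ML1 (4.25%, and 2 members). The mean of Nr1d1 in ch+ lay above that in ch- with both lines, by 0.94 with HL60 (limma adjusted p = 0.127) and 0.65 with ML1 (limma adjusted p = 0.351).

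These contrasts do not show that the lines differ. The late libraries also parted by line in other markers. Osteoblast markers summed to 18.62 to 19.00 with HL60 and 16.34 to 17.03 with ML1, and chondrocyte markers to 14.46 to 14.97 and 12.42 to 12.93, both without overlap. Endothelial markers summed to 7.86 to 8.40 with HL60 and 7.45 to 7.51 with ML1, again without overlap. Skeletal muscle markers, at 5.40 to 5.45 and 5.21 to 5.35, did not overlap either, whereas the other marker lists did. Their part in the late results of each line was not tested. Compared directly, HL60 and ML1 differed in no member by limma in late (4.09% of all genes did, and 1 member had an unadjusted p under 0.05), ch+ (0.0154%, no member) or ch- (0.0539%, no member). The difference nearest to the threshold was that of Npas2 in late, 0.68 toward HL60 (95% interval 0.11 to 1.24, limma adjusted p = 0.291). It passed with array weights (0.65, limma adjusted p = 0.0599) and in a fit of the late groups alone (0.68, limma adjusted p = 0.0559).

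Tests, chosen after the values were seen, of whether a contrast itself differed between HL60 and ML1 gave no member either, for ch+ against ch- (0.00771% of all genes, no member at an unadjusted p under 0.05), late against ch+ (2.50%, 1 member) and late against ch- (2.03%, no member). The 1 member was Nr1d2, whose late difference from ch+ was smaller with HL60 than with ML1, by −0.96 (95% interval −1.86 to −0.06, limma adjusted p = 0.425). With 3 libraries per line and stage, such intervals are wide.

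Other genes of the clock were read from a list of 18, of which 14 passed the filter. In late against ctrl 3 of 14 were deregulated, 2 lower and 1 higher, beside 21.5% of all tested genes, and in ch+ 2 of 14, beside 6.17%, while limma called none in ch- (3 at an unadjusted p under 0.05) or between the early fractions (2 at that level). Bhlhe40 and Bhlhe41, the DEC repressors that compete at E-boxes, and Nfil3, the repressor that opposes DBP at D-boxes, were the genes concerned.

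Bhlhe40 stood between 11.01 and 11.35 log2 in ctrl and between 9.79 and 10.30 in late, and the groups did not overlap. It fell by 1.01 in late against ctrl (SE 0.13, limma adjusted p = 1.66e-06), and was lower in late than in ch+ (−0.89, SE 0.11) and in ch- (−0.68, SE 0.11; positive when rescaled to equal totals). Bhlhe41 was lower than ctrl in late (−0.74, limma adjusted p = 0.0527) and in ch+ (−0.79, limma adjusted p = 0.0879). Without ctrl replicate 373 or 374, neither Bhlhe41 call held, nor did they when rescaled to equal totals, and the ch+ call was also lost without HL60 ch+ replicate 523 or 525 or ML1 ch+ replicate 539.

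Nfil3 was higher than ctrl in ch+ by 0.98 (SE 0.25, limma adjusted p = 0.0197) and in late by 0.67 (SE 0.25, limma adjusted p = 0.0644). Its mean was 6.90 ± 0.51 in ctrl (SD, n = 3), 7.88 ± 0.27 in ch+ (n = 6) and 7.57 ± 0.27 in late. The ch+ call was lost without ctrl replicate 373 (0.77). The late call was lost without ctrl replicate 373 or 375, ML1 late replicate 581 or 583 or HL60 late replicate 397, with differences from 0.46 to 0.96 over all libraries left out. The other 11 genes of the list that passed the filter were not deregulated in any of the 6 comparisons.

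Per1 and Per2 also respond to signals other than the clock, and glucocorticoids are known to induce Per1. Of 9 glucocorticoid-induced genes, Per1 included, 6 rose in late against ctrl, where 21.5% of all tested genes were deregulated, with a median log2 difference of 0.89 over the 9, beside 0.02 over all tested genes. They were Fkbp5 (1.87, SE 0.46), a chaperone of the glucocorticoid receptor, Tsc22d3 (1.41, SE 0.36), the gene of GILZ, Klf9 (1.03, SE 0.24), Zbtb16 (0.96), Pdk4 (0.89) and Errfi1 (0.87). In the same comparison 12 of 12 chondrocyte and 7 of 9 osteoblast markers were lower and 7 of 10 mesenchymal markers higher, and their part in these differences was not tested. Against ctrl, limma called none in ch+ (2 at an unadjusted p under 0.05) or in ch- (1 at that level), and between ch+ and ch- 1 of 9, Errfi1, which was higher in ch+ (0.62, limma adjusted p = 0.0146), beside 6.26% of all tested genes. In late 5 of 9 were higher than in ch+, Per1 among them, beside 19.7%, and 4 of 9 higher than in ch-, beside 22.5%. Per1 itself was not deregulated in late against ctrl (0.21, limma adjusted p = 0.701), and a link between these genes and Per1 was not tested.

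Tsc22d3 libraries spanned 6.83 to 7.41 log2 (ctrl), 5.90 to 7.28 (ch-), 6.27 to 7.35 (ch+) and 7.71 to 9.98 (late). All late libraries lay above those of every other group. Fkbp5 ranged from 4.12 to 5.33 in ctrl and from 5.95 to 7.73 in late, again without overlap. Zbtb16 lost its late call when any ctrl library, ML1 late replicate 582 or 583, or HL60 late replicate 397 or 398 was left out, with differences from 0.75 to 1.16 over all libraries left out, and Pdk4 lost its call without ctrl replicate 374.

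Immediate early genes, which respond within minutes to growth factors and to handling of cells, were compared between the early fractions. Of 12, 6 were lower in ch+ than in ch- (Fos, Fosb, Egr1, Jun, Ier2 and Nr4a1), where 6.26% of all tested genes were deregulated, with a median of −0.50 over the list, beside −0.02 over all tested genes. Ier2 differed by −0.82 (SE 0.19, limma adjusted p = 0.00874) and Nr4a1 by −0.69 (SE 0.16, limma adjusted p = 0.00769), and Per1, itself inducible, by −0.54 without passing the test. In the same comparison 10 of 12 chondrocyte and 6 of 8 smooth muscle markers were lower, with list medians of −2.88 and −1.70, and their part in these differences was not tested. The count of 6 became 4 with quantile normalization and 2 when rescaled to equal totals. With HL60 alone the calls of Fosb, Jun, Ier2 and Nr4a1 were lost. The calls of Fosb and Jun were the least secure, lost without any 1 of 8 and 4 libraries respectively.

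Against ctrl, 1 of 12 was deregulated in ch-, beside 1.92% of all tested genes, and 7 had an unadjusted p under 0.05, with a list median of 0.44 beside 0.01. The 1 gene was Fos, higher by 0.52 (SE 0.14, limma adjusted p = 0.0516), a call lost without any ctrl library and without ML1 ch- replicate 544 or 546. In ch+ limma called none (0 at an unadjusted p under 0.05). In late 5 of 12 were lower than in ch-, beside 22.5% of all tested genes, and 4 of 12 differed from ch+, 3 higher and 1 lower, beside 19.7%. Against ctrl 3 of 12 were deregulated in late, beside 21.5%. Jun was higher by 0.86 (SE 0.20), Egr1 higher by 0.41 (SE 0.16) and Atf3 lower (−0.71, SE 0.22). The Egr1 call was lost without any ctrl or any ML1 late library, and that of Atf3 without ctrl replicate 374 or when rescaled to equal totals. From ctrl to ch- all 7 red cell and 6 of the 7 tested blood cell markers were higher. All 7 red cell and all 7 tested blood cell markers were lower in late than in either early group. Chondrocyte markers were lower in late than in ch- and ctrl (12 of 12 in both). The part of these markers in the immediate early differences was not tested, nor was that of the immediate early genes in the values of Per1.

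**Figure D3:**
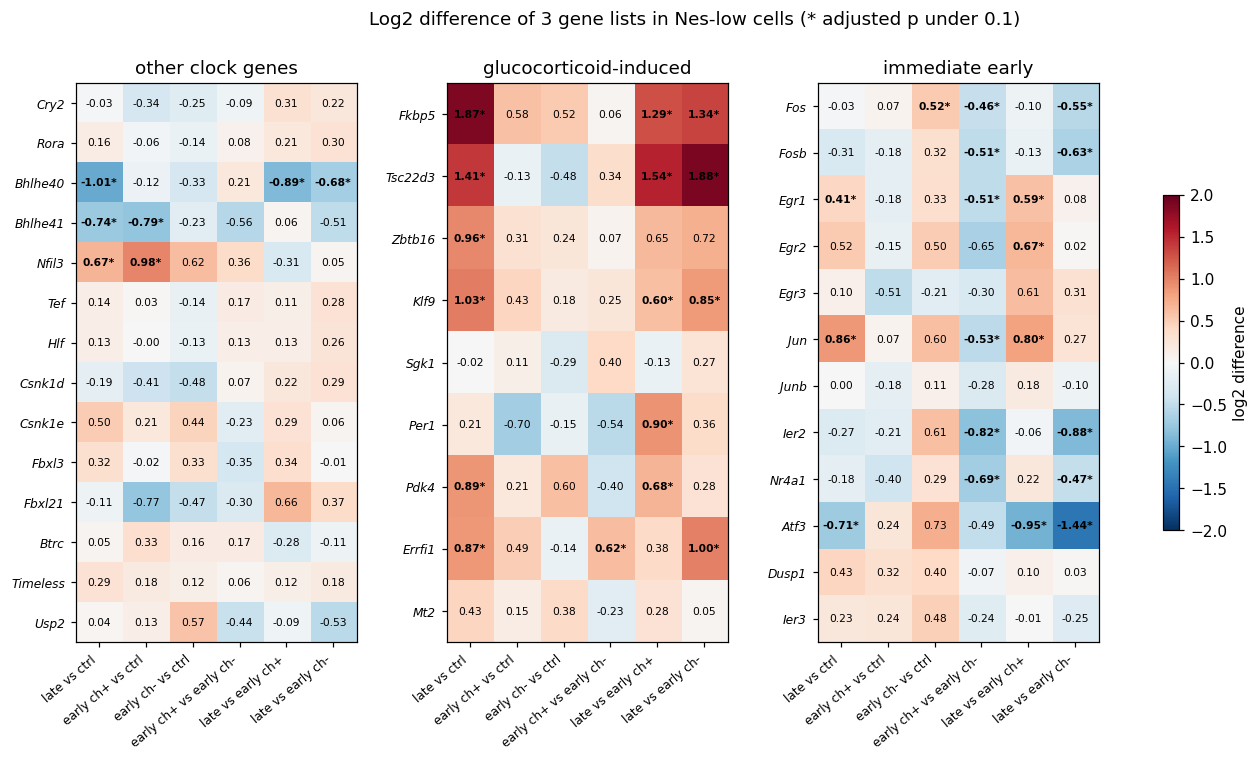
Log2 differences of other clock genes, glucocorticoid-induced genes and immediate early genes (vertical axes) in the 6 pooled comparisons (horizontal axes), colored from blue (lower in the first group) to red (higher), with an asterisk where the limma adjusted p is under 0.1. Fkbp5 (1.87) and Tsc22d3 (1.41) are higher and Bhlhe40 (−1.01) lower in late than in ctrl; rescaled to equal totals, Bhlhe40, Fos, Fosb and Nr4a1 turn from lower to higher in late against ch-.

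The genes whose log2 values ran most closely with Nr1d1 over the 21 libraries were Tns2 (Pearson's r 0.79), Capns1 (0.78), Lin9 (0.77), Dennd5a (0.72) and Cep126 (0.71). For Arntl they were Ttpal (0.74), Ppp3cb (0.72), Tlcd2 (0.72), Cited2 (0.70) and Cish (0.69). With the 7 group means removed, other genes came first, Chst11 (0.82) and Klf1 (0.81) for Nr1d1 and Zc3h7b (0.83) and Zfp787 (0.78) for Arntl. No clock gene was among the 5 closest in any of these rankings, which are descriptions over libraries that share groups and were picked as the highest of all tested genes.

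The regulatory elements of the loop can be read near the starts of several members. In windows of 300 bases (250 before to 50 after a RefSeq start, GRCm38.p6), 9 of the 10 members were matched by symbol, with 13 windows; Per2 was not. Both strands were searched for the E-box CACGTG, the related CACGTT, the D-box TTATGTAA or TTACGTAA and the ROR element core TAGGTCA or TGGGTCA, none of which contains another. Of 32851 windows of that length, 7.15% held the E-box, 4.68% CACGTT, 1.06% a D-box and 6.45% a ROR element core. A match is a run of letters and not a measured site, and a window without one says nothing of the factor.

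Since Nr1d1, Per1 and Cry1 are targets of the ARNTL pair and Arntl of the REV-ERB proteins, the sites found are shown with 30 bases each, read 5′ to 3′ on the strand of the gene, with the matched letters in capitals. Nr1d1, the member with the largest change, holds CACGTT on the other strand at chr11:98775388-98775417 (minus strand), upstream of the annotated gene. Cry1 holds an E-box at chr10:85185097-85185126 and CACGTT on the other strand at chr10:85185116-85185145 (both minus strand, upstream of the annotated gene). Per1 holds an E-box at chr11:69098771-69098800 (plus strand), in an intron and before an internal start. Per3 holds D-boxes at chr4:151044805-151044834 and chr4:151044852-151044881 (minus strand, upstream). Arntl holds a ROR element core at chr7:113207530-113207559 (plus strand), in the untranslated first part of the transcript.
Nr1d1 CACGTT: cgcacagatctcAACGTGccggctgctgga
Cry1 E-box: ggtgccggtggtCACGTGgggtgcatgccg
Cry1 CACGTT: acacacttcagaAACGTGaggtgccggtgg
Per1 E-box: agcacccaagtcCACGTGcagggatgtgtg
Per3 D-box, nearer the start: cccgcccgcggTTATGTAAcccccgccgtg
Per3 D-box, farther: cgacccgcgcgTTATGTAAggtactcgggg
Arntl ROR element core: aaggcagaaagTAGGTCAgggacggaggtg

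The windows of Clock, Npas2, Nr1d2 and Dbp held none of these letters. Nr1d1 and Cry1 share the CACGTT match. Nr1d1 fell in ch- against ctrl, where Cry1 had a mean difference of 0.43 (limma adjusted p = 0.648).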

How the data were processed

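RNA of FACS-sorted Nes low cells had been sequenced as paired-end reads in 21 libraries. The authors aligned them to mm10 with STAR 2.5.1b, counted Ensembl genes with RSEM 1.2.29, by strand, and normalized with DESeq2, of which the labels (1.10.1) and the study's methods name different versions. The deposited values are regularized log2 values, the unit read from their range (−2.33 to 22.44), although the study's methods name log10. Read counts were not used here. The study's methods give a typical yield, but the depth of each library and its precision are unknown.

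Genes with a mean log2 value of at least 3.32, or 10 normalized counts, were tested (12976 of 26852) with limma 3.58.1 in R 4.3.3. Empirical Bayes used a mean-variance trend, p-values were 2-sided and adjusted by Benjamini-Hochberg over all tested genes, and an adjusted p under 0.1 was called. A fit with 4 groups gave the pooled comparisons and a fit with 7 groups the lines apart. Early ch+ and ch- cells are described as coming from the same marrow, but the groups share no replicate number, so the fits are unpaired. They treat the 2 early fractions as independent libraries, which bears on the p-values between ch+ and ch-. The fit was also tested on simulated data for late against ctrl (12976 genes). It found 7.46% of 67 genes changed by 0.5 log2, 46.3% of 67 changed by 1 and 97.0% of 66 changed by 2, with 1 false call. Far fewer genes were changed there than the 2795 called in late against ctrl. The adjustment depends on how many genes change, so these shares need not hold for that comparison. Loci, promoter windows and figures used Python 3.11.15 and matplotlib 3.10.9.

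The members and lists were chosen with earlier results of these data known. All 10 members are named, other list genes only where called in at least 1 of the 6 pooled comparisons, and for Arntl and Nr1d1 the 5 genes with the closest values. Thra and Sphk2, which overlap members, were chosen after values were seen, as were the tests of contrasts between the lines. Alternatives were no or a stricter filter, quantile normalization, rescaling to the mean library total, no trend, robust empirical Bayes, array weights, the compared groups alone, a threshold of 0.05, the lines averaged or alone, and each library left out in turn. No library was left out of the reported fits.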

Additional observations from a re-analysis of the deposited data

Results flagged for a closer look

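In 2 of the 30 groups of 6 libraries checked, 1 library stood far from the other 5 by Dixon's test, where chance alone would give about 1 in 20. Per3 in early ch+ ML1 replicate 539 was 6.83, with a gap of 0.676 of the range of the group, above the 95% critical value for 6 libraries. Dbp in early ch- ML1 replicate 544 was 6.51, with a gap of 0.794.

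Without replicate 539, Per3 differed by −0.53 between ch+ and ctrl in place of −0.16, and by −0.66 between ch+ and ch- in place of −0.29. Without replicate 544, the difference of Dbp between ch+ and ch- became 0.28 in place of −0.20, and that between late and ch- 0.28 in place of −0.19, so both turned. Neither of these Dbp differences passed the test with or without the library. What set these libraries apart was not tested.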

How the results depend on the processing

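The lower Nr1d1 of ch- against ctrl (−1.61 to −1.37 with a library left out) and its higher value in late against ch- (1.00 to 1.29) kept direction and call in every setting. Of 981 member differences under other settings, 909 kept direction and side of the threshold, 12 lost and 24 gained the call, and 36 turned. Of 1890 with a library left out, 1801 were kept, 8 lost and 7 gained the call, and 74 turned. Dbp has no value at a mean log2 of at least 5, since that filter drops it. The depth of each library is unknown, so its limit on the members with low values was not measured. No paired analysis was run, because the groups share no replicate number and pairs taken from the order of the numbers would be a guess. Rescaling assumes equal total signal in every library and so moves late upward by construction; the cause of the other changes was not tested.

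With no filter on low values, the count of called members was 0 for late against ctrl and 0 for ch+ against ch-, and Per2 lost its call in late against ch+. Rescaled to the mean library total, the count of called members was 6 for late against ctrl, 2 for ch+ against ch-, 7 for late against ch+ and 8 for late against ch-. Of the 12976 tested genes, 8323, 1073, 9055 and 10185 were called on that scale, in the same order. Of all called genes 93.8%, 78.7%, 93.5% and 95.3% were higher, in place of 47.3%, 57.1%, 44.6% and 45.3%. For ch+ against ctrl 66.6% were higher in place of 55.4%, and for ch- against ctrl 41.9% in place of 59.0%. With array weights, the count of called members was 0 for ch+ against ch- and 1 for HL60 against ML1 in late. With the compared groups alone, the count of called members was 3 for late against ctrl, 2 for late against ch- and 1 for HL60 against ML1 in late. With the lines averaged, the count of called members was 2 for ch+ against ch-. With HL60 alone, the count of called members was 0 for late against ctrl, 0 for ch+ against ch- and 1 for late against ch+. With ML1 alone, the count of called members was 3 for late against ctrl, 0 for ch+ against ch-, 2 for late against ch+ and 2 for late against ch-.

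With quantile normalization, the sign turned in late against ctrl (Clock 0.00730); late against ch- (Clock 0.00966); HL60 against ML1 in ch+ (Nr1d1 0.000211 and Dbp −0.0899). Rescaled to the mean library total, the sign turned in late against ctrl (Clock 0.64, Npas2 0.41, Cry1 0.61, Nr1d1 0.31 and Dbp 0.0178); ch+ against ch- (Arntl 0.13 and Cry1 0.00759); late against ch+ (Clock 0.53, Npas2 0.22 and Cry1 0.25); late against ch- (Clock 0.73, Cry1 0.25 and Dbp 0.58); HL60 against ML1 in late (Dbp −0.0888); HL60 against ML1 in ch+ (Nr1d1 0.0191). With array weights, the sign turned in late against ch- (Clock 0.0114). With HL60 alone, the sign turned in late against ctrl (Npas2 0.0516); ch+ against ch- (Arntl 0.11 and Dbp 0.13); late against ch+ (Arntl −0.14); late against ch- (Arntl −0.0323, Clock 0.0753 and Dbp 0.21). With ML1 alone, the sign turned in late against ctrl (Cry1 0.0554); ch+ against ctrl (Per3 0.15); ch- against ctrl (Clock 0.14, Per3 −0.14 and Nr1d2 −0.0371); ch+ against ch- (Clock −0.13 and Per3 0.29); late against ch+ (Dbp −0.0600); late against ch- (Npas2 −0.17). The cause was not tested.

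With each of the 21 libraries left out in turn, the count of called members ranged from 0 to 2 for late against ctrl, 0 to 1 for ch+ against ctrl, 0 to 3 for ch+ against ch- and 1 to 2 for late against ch-. For late against ctrl it was 0 without ctrl replicate 374 and 2 without HL60 late replicate 399. For ch+ against ctrl it was 1 without ML1 ch+ replicate 541. For ch+ against ch- it was 3 without HL60 ch+ replicate 523 and 0 without HL60 ch- replicate 529 or ML1 ch+ replicate 541, and for late against ch- 2 without HL60 ch- replicate 527. In late against ch+, Per2 lost its call without ML1 late replicate 582 or 583, HL60 late replicate 398, HL60 ch+ replicate 523 or ML1 ch+ replicate 539. Npas2 gained a call there without HL60 late replicate 398, and Per3 without ML1 ch+ replicate 539.

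The sign of other differences turned without at least 1 library, and their lowest and highest values follow. For late against ctrl these were Clock −0.11 to 0.00816 and Cry1 −0.19 to 0.0502. For ch+ against ctrl these were Npas2 −0.0654 to 0.34, Per3 −0.63 to 0.13 and Clock −0.0250 to 0.0922. For ch- against ctrl these were Clock −0.0987 to 0.0523, Per3 −0.34 to 0.42 and Nr1d2 −0.0400 to 0.24. For ch+ against ch- these were Arntl −0.11 to 0.10, Clock −0.0189 to 0.13, Cry1 −0.32 to 0.00808 and Dbp −0.38 to 0.28. For late against ch+ these were Dbp −0.0989 to 0.12 and Arntl −0.0436 to 0.18. For late against ch- these were Arntl −0.0669 to 0.17, Clock −0.10 to 0.0480 and Dbp −0.37 to 0.28. For HL60 against ML1 in late these were Clock −0.15 to 0.0256, Dbp −0.0915 to 0.35, Per1 −0.65 to 0.14 and Per2 −0.54 to 0.13. For HL60 against ML1 in ch+ these were Npas2 −0.43 to 0.12, Per2 −0.77 to 0.19, Cry1 −0.38 to 0.33, Dbp −0.22 to 0.29, Clock −0.0651 to 0.18, Arntl −0.17 to 0.39, Nr1d1 −0.43 to 0.34 and Per3 −1.03 to 0.11. For HL60 against ML1 in ch- these were Arntl −0.28 to 0.0879, Npas2 −0.16 to 0.24, Cry1 −0.26 to 0.40, Nr1d2 −0.00718 to 0.48 and Dbp −1.26 to 0.38. The cause was not tested.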
